A study of Mus musculus with 12 samples.

Results

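The levels of 10 genes of the N6-methyladenosine (m6A) pathway were followed as mouse embryonic stem cells (ESCs) became epiblast-like cells (EpiLCs). The genes were taken by name: the writers Mettl3, Mettl14 and Wtap, the readers Ythdf1, Ythdf2, Ythdf3, Ythdc1 and Ythdc2, and the erasers Alkbh5 and Fto. All 10 were among the 51467 genes of the deposited count table, and all 10 passed the filter on low counts that kept 14731 genes. ESCs were grown with serum, LIF and the 2i inhibitors PD0325901 and CHIR99021, and EpiLCs were collected about 56 h after LIF and 2i were withdrawn. Cells of both kinds were given 500 µM of the uridine analog 4-thiouridine (4sU) for 30 min. The extracted RNA was then divided, so that 4sU-labeled molecules were captured for nascent RNA libraries while the rest was depleted of ribosomal RNA for total RNA libraries. There were 4 groups, ESC 4sU, ESC total, EpiLC 4sU and EpiLC total, with 3 libraries each. The labels name no line or clone, while the paper lists an ESC line with mCherry and GFP reporters of microRNAs for this differentiation. Whether the 3 libraries came from separate cultures is not in the labels, though the paper speaks of biological replicates. The p-values measure the spread between these libraries only.

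m6A is the most abundant internal modification of mammalian mRNA. It is written in the nucleus by a complex in which METTL3 is the catalytic subunit, METTL14 holds the RNA substrate and WTAP brings the pair to nuclear speckles. Readers with a YTH domain bind the modified base and change the splicing, export, translation or decay of the transcript, while ALKBH5 and FTO can remove the methyl group. In mouse ESCs the mark is known for its presence on transcripts of pluripotency factors, and cells without Mettl3 leave the naive state poorly. Neither m6A nor any protein was measured here, so the values below are RNA levels of the machinery.

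The 4sU libraries held 3097693 to 5385644 reads on genes and the total libraries 9300845 to 21975684. The cells carried the markers of their labels: 6 naive markers (Zfp42, Esrrb, Klf4, Tfcp2l1, Nanog and Prdm14) summed to 3054 to 3411 CPM (counts scaled to a common library total) in ESC total libraries and to 313 to 323 CPM in EpiLC total libraries, and 4 EpiLC markers (Fgf5, Otx2, Dnmt3b and Pou3f1) to 145 to 158 and 1296 to 1597 CPM. The summed level of 6 fibroblast markers was 3.90 to 4.70 CPM in ESC total and 13.9 to 18.6 CPM in EpiLC total libraries, where 2 and 1 of the 6 were at 0, and its part in the results was not tested. The third library of each ESC group stood apart. Its mean root mean square difference from the other libraries of its group, over the log2 CPM of 14731 genes, was 0.528 in ESC total against 0.379 and 0.384 for the others, and 0.571 in ESC 4sU against 0.472 and 0.493. Where leaving these libraries out changed whether a member passed at an adjusted p under 0.05, values are given with and without them. In bulk RNA, fewer cells of one kind and less RNA per cell cannot be told apart.

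Positions are those of the mm10 build. Mettl3 is at chr14:52294841-52305128, Mettl14 at chr3:123368297-123386108 and Wtap at chr17:12966796-12992546, all 3 on the minus strand. Ythdf1 is at chr2:180904377-180920949 and Ythdf2 at chr4:132184912-132212303 on the minus strand, and Ythdf3 at chr3:16183212-16217037 on the plus strand. Ythdc1 is at chr5:86804221-86836659, Alkbh5 at chr11:60537978-60558512 and Fto at chr8:91313525-91668439, all 3 on the plus strand. Fto is the longest, at 354.9 kb from end to end with 12371 exonic bases, whereas Mettl3 spans 10.3 kb with 2025 exonic bases. All are protein-coding, and their annotated exons, which hold coding sequence and UTRs, are what was counted.

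Because YTHDF1, YTHDF2 and YTHDF3 are close paralogs, the stretches of sequence that their transcripts have in common decide whether their reads can be told apart. The longest identical runs between the transcripts of each pair, from GENCODE M21 on mm10, are shown in the sense of the transcripts. The run of Ythdf1 and Ythdf2 lies at chr2:180911610-180911631 and chr4:132205103-132205124. Ythdf1 and Ythdf3 have a pair of runs of equal length, at chr2:180911141-180911157 with chr3:16204954-16204970, and at chr2:180911096-180911112 with chr3:16204999-16205015. The run of Ythdf2 and Ythdf3 lies at chr4:132205011-132205027 and chr3:16204514-16204530. Each is within 1 exon and wholly coding in both genes.
Ythdf1 and Ythdf2: attgctagcaagcctgcaaaac
Ythdf1 and Ythdf3: aagagctattctgagga
Ythdf1 and Ythdf3: atctggtgtagtactga
Ythdf2 and Ythdf3: atattggaacttgggat
The longest was 22 bases and the others were 17 bases, all shorter than the 50-base reads. No read of full length could thus lie wholly within sequence identical between 2 YTHDF genes. Reads shortened by adapter trimming, and stretches with mismatches, were not examined. Other genes shared more. Of the distinct 50-base words of the Ythdf2 transcripts, 8.45% also occurred in another gene, the processed pseudogenes Gm6823 and Gm8401, which had 0 reads in all libraries. For Wtap this share was 7.56%, mainly with the processed pseudogene Gm14292, which had 0 to 23 reads per library. For Ythdc1 it was 17.5%, all with the lincRNA Gm43055, whose exon overlaps 631 bases of Ythdc1 on the same strand and had 0 reads. With unique alignment and the counter's default for overlapping genes, a read wholly within such a stretch was counted for neither gene. Mettl3 overlaps 366 exonic bases of Tox4 on the other strand, which the strand-specific counting kept apart. The share was 0% for Mettl14, Ythdf1, Ythdf3, Ythdc2 and Mettl3 and at most 0.159% for Alkbh5 and Fto, counted on the same strand.

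Per exonic length the members fell into an abundant and a rare set, a split that rests on that length. Fto (12371 bases), Mettl14 (7374) and Ythdc2 (7215), the rare set, have the longest annotated exonic lengths of all members. In ESC total CPM, Mettl3 (52.9) lay among Mettl14 (47.5), Ythdc2 (45.7) and Fto (60.3). Which annotated isoforms were expressed was not tested. Levels between genes are given as RPKM, the CPM divided by the exonic kilobases of the gene. In ESC total RNA, Ythdf2 was highest at 43.0 ± 1.74 RPKM (SD, n = 3 here and below), followed by Ythdf1 at 35.1 ± 5.46, Ythdf3 at 29.2 ± 3.93, Wtap at 27.4 ± 2.09, Mettl3 at 26.1 ± 2.44, Ythdc1 at 24.0 ± 1.69 and Alkbh5 at 22.4 ± 1.61 RPKM. From Ythdf1 down to Alkbh5, each gene's range over the libraries overlapped that of the next. Mettl14 at 6.44 ± 0.359, Ythdc2 at 6.33 ± 0.307 and Fto at 4.88 ± 0.744 RPKM stood clearly below. The range of Mettl14 overlapped that of Ythdc2 and not that of Alkbh5, and the ranges of Ythdc2 and Fto did not overlap.

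In EpiLC total RNA the same 3 genes were lowest, Ythdc2 at 8.95 ± 0.278, Mettl14 at 6.48 ± 0.199 and Fto at 5.87 ± 0.0857 RPKM, with no overlap between neighbors. Ythdf2 was again highest at 42.1 ± 1.15 RPKM. Wtap moved from the fourth place to the seventh, at 16.6 ± 0.743 RPKM, and its range overlapped neither that of Alkbh5 above it nor that of Ythdc2 below. Ythdf3 at 38.4 ± 0.802 and Ythdf1 at 37.6 ± 1.53 RPKM overlapped. In nascent RNA, Ythdf1 headed the order in both cell types, at 83.7 ± 7.19 RPKM in ESCs and 98.5 ± 4.19 RPKM in EpiLCs, without overlap with Ythdc1 below it. Ythdc1, the sixth in ESC total RNA, was the second in nascent RNA, at 62.4 ± 6.19 and 77.6 ± 1.83 RPKM, and overlapped Ythdf2 below it in both cell types.

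**Figure D1:**
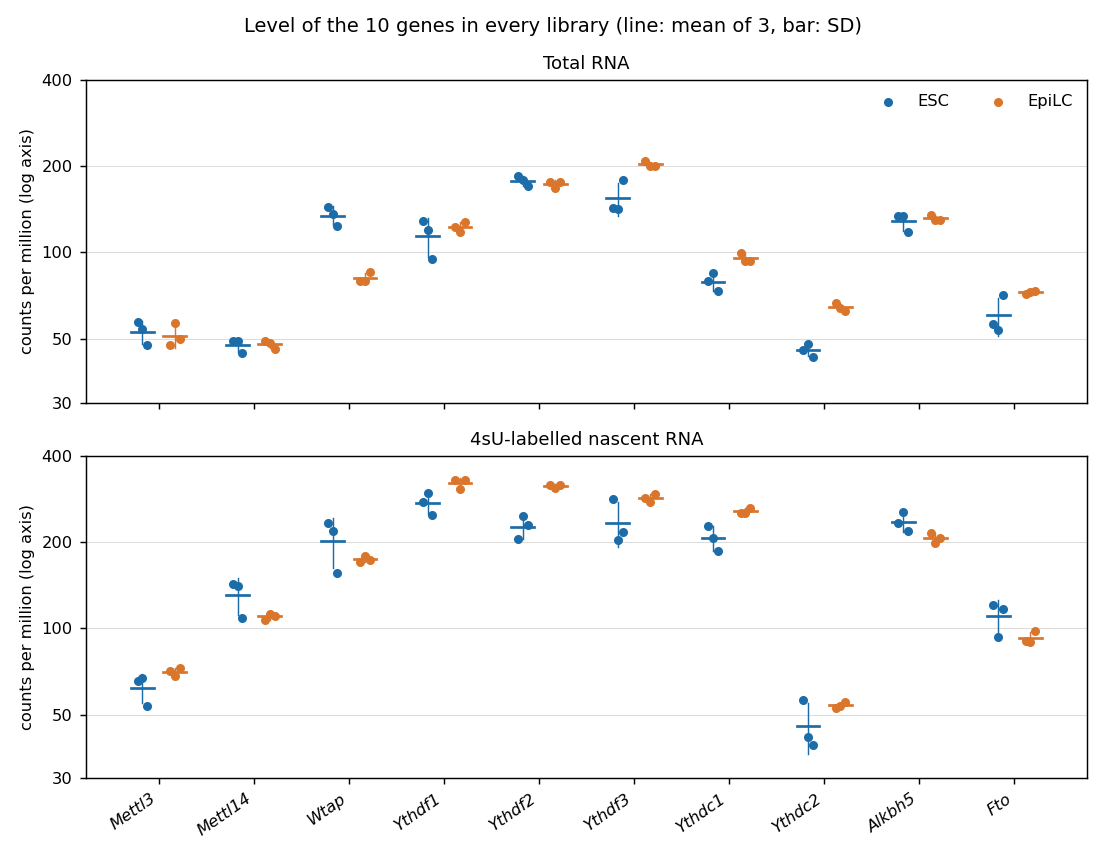
TMM-adjusted CPM (log axis) of the 10 genes in every library, with total RNA above and 4sU-labeled RNA below. Points are libraries in the order 1 to 3, horizontal lines are means and vertical bars are SDs; in total RNA the 3 EpiLC points of Wtap (79.2 to 85.6 CPM) lie below its 3 ESC points (124 to 144 CPM), while those of Mettl3 and Mettl14 overlap.

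The first comparison asked which members differed in mRNA level between ESCs and EpiLCs. None of the 10 was called at an adjusted p under 0.05 with an absolute log2 fold change over 1, against 27.6% of the 14731 genes tested, and edgeR and DESeq2 called none either. At the adjusted p alone, 4 members were higher in EpiLCs (Ythdf3, Ythdc1, Ythdc2 and Fto), where 31.4% of all genes were higher, and 1 was lower (Wtap), where 32.1% were. The other 5 did not pass. The median log2 change was 0.07 over the members and 0.02 over all genes. In total RNA all EpiLC libraries were above all ESC libraries for 4932 of the 14731 genes and below for 5167. A lack of overlap between the groups was thus common. All fold changes and adjusted p-values are from limma-voom with Benjamini-Hochberg adjustment over all genes, unless another tool is named.

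The catalytic pair did not pass the test. Mettl3 was at 57.1, 54.2 and 47.4 CPM in ESC total libraries and at 47.5, 56.6 and 49.9 CPM in EpiLC total libraries. The groups overlapped, and the log2 change was -0.05 ± 0.10 (SE, 95% interval -0.26 to 0.16, adjusted p = 0.689). Mettl14 was at 49.0, 49.1 and 44.5 CPM in ESCs and at 49.0, 48.2 and 46.2 CPM in EpiLCs, a log2 change of 0.00 ± 0.10 (interval -0.21 to 0.22, adjusted p = 0.975). The intervals of both genes exclude a change of 1 log2 unit in either direction.

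Wtap, the adaptor of the writer complex, fell and had the largest change of the 10. Its ESC total libraries held 144, 136 and 124 CPM and its EpiLC total libraries 79.4, 79.2 and 85.6 CPM. Every EpiLC library was below every ESC library, as for 5167 of the 14731 genes. The log2 change was -0.73 ± 0.12 (interval -0.97 to -0.48, adjusted p = 7.39e-05). It stayed past the test under all 21 alternatives, which ran from -0.80 to -0.64.

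Of the 3 cytoplasmic YTHDF readers, Ythdf3 rose and the other two did not pass the test. Ythdf1, linked to translation of marked mRNAs, was at 129, 120 and 94.7 CPM in ESC total and at 123, 118 and 128 CPM in EpiLC total libraries. Its log2 change of 0.10 ± 0.10 (adjusted p = 0.395) did not pass, and without ESC total library 3 it was -0.02 (adjusted p = 0.84). Ythdf2, which recruits the CCR4-NOT deadenylase to marked mRNAs, was at 184, 179 and 170 CPM and at 177, 168 and 177 CPM, and its groups overlapped. The log2 change was -0.03 ± 0.07 (interval -0.19 to 0.13, adjusted p = 0.725). Ythdf3, which acts together with the other two, was at 143, 142 and 178 CPM in ESCs and at 208, 201 and 200 CPM in EpiLCs. All EpiLC libraries of Ythdf3 were above all ESC libraries, with ESC library 3 nearest to them, and the log2 change was 0.41 ± 0.11 (interval 0.17 to 0.64, adjusted p = 0.00461). Without ESC total library 3 the change of Ythdf3 was 0.51, the highest of the 21 alternatives, and the lowest was 0.34.

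Both YTHDC readers rose. Ythdc1, the nuclear reader of splicing and export, was at 79.3, 84.7 and 73.5 CPM in ESC total and at 99.9, 93.6 and 93.7 CPM in EpiLC total libraries. The groups did not overlap, and the log2 change was 0.27 ± 0.08 (adjusted p = 0.0112). With no filter on low counts the change of Ythdc1 was 0.20 and no longer passed (adjusted p = 0.159). Ythdc2, an RNA helicase best known from germ cells, lies on chr18:44827746-44889717 on the plus strand. It was at 45.8, 47.8 and 43.4 CPM in ESCs and at 66.7, 64.3 and 62.7 CPM in EpiLCs. This was the largest rise of the 10, with a log2 change of 0.50 ± 0.10 (interval 0.29 to 0.70, adjusted p = 0.000378), and it passed under all 21 alternatives.

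Of the erasers, Alkbh5 did not pass and Fto rose by a small margin. Alkbh5 was at 134, 134 and 118 CPM in ESC total and at 135, 130 and 130 CPM in EpiLC total libraries, a log2 change of 0.04 ± 0.08 (interval -0.13 to 0.20, adjusted p = 0.695). Fto was at 56.3, 53.8 and 70.8 CPM in ESCs and at 71.4, 72.8 and 73.5 CPM in EpiLCs. The groups did not overlap, but ESC library 3 came within 1 CPM of the lowest EpiLC library. The log2 change of Fto was 0.29 ± 0.11 (interval 0.05 to 0.53, adjusted p = 0.0332). It was lost in 9 of the 21 alternatives: in edgeR (adjusted p = 0.052), in DESeq2 (0.0853), with median-of-ratios scaling (0.0546), with no filter (0.0938), without ESC total library 1 (0.23, adjusted p = 0.133) or 2 (0.21, 0.162), and without EpiLC total library 1 (0.30, 0.0606), 2 (0.29, 0.0742) or 3 (0.29, 0.079). Without ESC total library 3, Fto rose by 0.40 on the log2 scale.

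**Figure D2:**
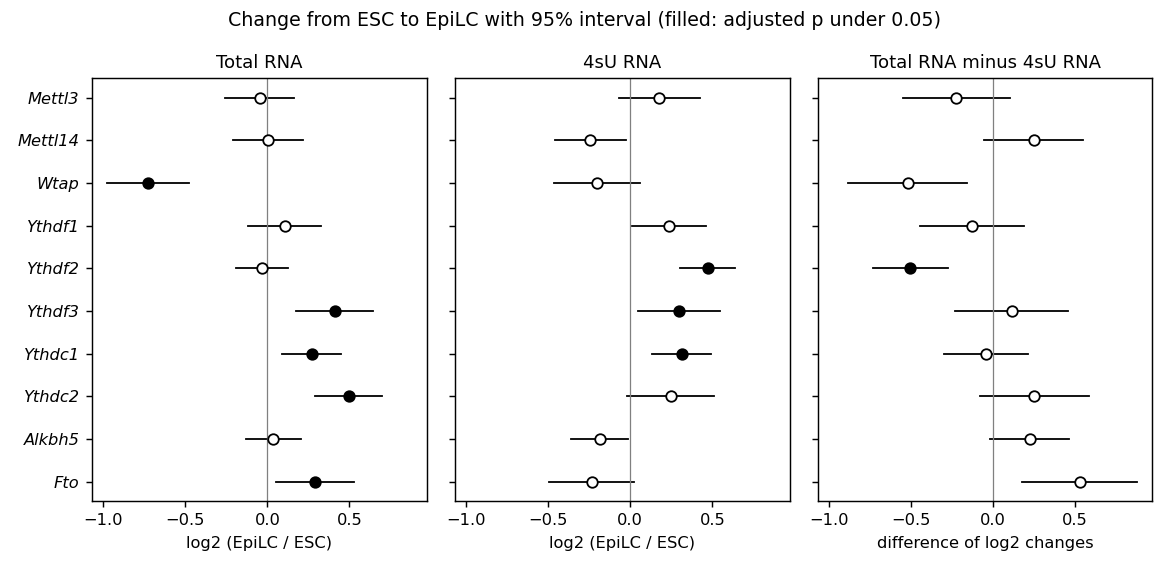
Change of each of the 10 genes from ESC to EpiLC, as the log2 fold change in total RNA, the log2 fold change in 4sU RNA and the difference between them, with points for the limma-voom estimates and lines for 95% intervals. Filled points passed at an adjusted p under 0.05: 5 in total RNA with Wtap alone to the left of 0, 3 in 4sU RNA, all to the right, and Ythdf2 alone in the difference, at -0.50.

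The second comparison asked the same of nascent RNA. Again no member was called, against 25.5% of all genes, and none by edgeR or DESeq2. At the adjusted p alone 3 members were higher in EpiLCs (Ythdf2, Ythdf3 and Ythdc1), where 23.7% of all genes were, and 0 were lower, where 28.8% were. At an unadjusted p under 0.05 the limma-voom fit had 2 lower, edgeR had 1 lower after adjustment (Mettl14, adjusted p = 0.0485) and DESeq2 had 0. The median log2 change was 0.21 over the members and -0.09 over all genes. In nascent RNA all EpiLC libraries were above all ESC libraries for 3923 of the 14731 genes and below for 5025.

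Among the readers, nascent Ythdf2 rose by the most. Its ESC 4sU libraries held 204, 246 and 228 CPM and its EpiLC 4sU libraries 315, 308 and 316 CPM. The groups were well apart, with a log2 change of 0.47 ± 0.08 (interval 0.31 to 0.64, adjusted p = 0.00016) that passed under all 21 alternatives. Nascent Ythdc1 was at 226, 207 and 186 CPM in ESCs and at 253, 253 and 263 CPM in EpiLCs. It rose by 0.31 ± 0.08 (adjusted p = 0.00625), also under all 21 alternatives. Nascent Ythdf3 was at 281, 203 and 217 CPM in ESCs and at 285, 275 and 294 CPM in EpiLCs. ESC 4sU library 1 lay inside the EpiLC range, and the log2 change of 0.30 ± 0.12 passed narrowly (adjusted p = 0.0443). It was lost in edgeR (adjusted p = 0.0547), without ESC 4sU library 2 (0.24, adjusted p = 0.102) or 3 (0.31, 0.0501), without EpiLC 4sU library 2 (0.33, 0.066), and without EpiLC total library 1 (0.30, 0.0517), 2 (0.31, 0.0525) or 3 (0.31, 0.0521). Nascent Ythdf1 was at 276, 295 and 249 CPM in ESCs and at 329, 306 and 330 CPM in EpiLCs. The groups did not overlap, but the log2 change of 0.23 ± 0.10 missed the threshold (adjusted p = 0.0744). Ythdf1 passed in DESeq2 (adjusted p = 0.0256), under each of the 3 other scalings (0.0303 to 0.0393), in the fit of 4sU libraries only (0.0209), and without ESC 4sU library 2 (0.34, adjusted p = 0.0434) or ESC total library 1 (0.29, 0.0255) or 3 (0.23, 0.0143). Nascent Ythdc2 was at 56.1, 41.7 and 39.2 CPM in ESCs and at 52.8, 53.7 and 55.2 CPM in EpiLCs (0.25 ± 0.12, adjusted p = 0.108), and without ESC 4sU library 1 it passed (0.38, adjusted p = 0.00777).

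No nascent change of a writer or an eraser passed. Nascent Mettl3 was at 65.3, 67.1 and 53.7 CPM in ESCs and at 70.8, 68.4 and 72.5 CPM in EpiLCs (0.18 ± 0.11, adjusted p = 0.212). Nascent Mettl14 was at 143, 140 and 109 CPM and at 107, 112 and 111 CPM (-0.24 ± 0.10, adjusted p = 0.0551), and nascent Wtap at 232, 218 and 156 CPM and at 171, 178 and 173 CPM (-0.20 ± 0.12, adjusted p = 0.175). For both, ESC library 3 lay far below the other ESC libraries and near the EpiLC values. Without ESC 4sU library 3, Mettl14 (-0.30, adjusted p = 0.00949) and Wtap (-0.31, 0.0125) were past the test. Nascent Alkbh5 was at 232, 254 and 219 CPM in ESCs and at 215, 199 and 207 CPM in EpiLCs (-0.19 ± 0.08, adjusted p = 0.0685), and nascent Fto at 121, 93.0 and 117 CPM and at 90.5, 89.7 and 98.1 CPM (-0.24 ± 0.12, adjusted p = 0.116). Without ESC total library 3, which enters through the shared scaling and estimate of the spread, Mettl14 (-0.25, adjusted p = 0.0344), Alkbh5 (-0.19, 0.0331) and Fto (-0.24, 0.0473) passed. Fto passed also without ESC 4sU library 2 (-0.32, 0.0332). Without both ESC libraries numbered 3, Mettl14 (-0.38, adjusted p = 0.000105), Wtap (-0.39, 5.46e-05) and Alkbh5 (-0.26, 0.00214) passed as lower in EpiLCs.

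The third comparison asked whether total and nascent RNA changed by different amounts, which at a steady state reads as a change in mRNA stability. This stability change is the total RNA change minus the nascent change. No member was called, against 1.54% of all genes, nor by edgeR or DESeq2. At the adjusted p alone 1 member was lower (Ythdf2), where 1.88% of all genes were, and 0 were higher, where 2.72% were. At an unadjusted p under 0.05, 1 member was higher by limma-voom, while edgeR and DESeq2 had 0 higher after adjustment. The median was 0.03 over the members. Over all genes it was 0.11, and with median-of-ratios scaling it was 0.03, so part of any positive value here moves with the scaling.

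Ythdf2 changed differently in total and nascent RNA. Nascent Ythdf2 rose while its total level did not pass, and the difference was -0.50 ± 0.11 (interval -0.73 to -0.27, adjusted p = 0.0194). It kept its sign under all 21 alternatives, from -0.64 to -0.41, and was past the test in 17. It was lost without EpiLC 4sU library 2 (-0.52, adjusted p = 0.0534), EpiLC total library 2 (-0.48, 0.0643) or EpiLC total library 3 (-0.52, 0.0503), and narrowly without ESC total library 2 (-0.50, 0.05).

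Wtap and Fto had differences as large as that of Ythdf2 with wider errors. For Wtap the difference was -0.52 ± 0.17 (interval -0.88 to -0.16, adjusted p = 0.087). It passed in DESeq2 (-0.59, adjusted p = 0.0255), without ESC total library 3 (-0.58, 0.0271) and without both ESC libraries numbered 3 (-0.40, 0.00507). For Fto it was 0.53 ± 0.16 (interval 0.17 to 0.88, adjusted p = 0.0797), with total RNA higher and nascent RNA lower in the mean of EpiLCs. Fto passed without ESC 4sU library 2 (0.58, adjusted p = 0.0435), without ESC total library 3 (0.63, 0.00766) and without both ESC libraries numbered 3 (0.61, 0.00258). Of the 21 alternatives, Wtap passed in 4 and Fto in 5. The passes not listed here were in fits with a replicate block, whose values are given in the closing section. Fto passed with a block by library number, and both Fto and Wtap with a block by cell type and number. The other 7 members lay between -0.22 (Mettl3) and 0.25 (Ythdc2), with adjusted p-values of 0.255 or more. Of these, Mettl14 (0.25 ± 0.14, adjusted p = 0.322) passed without both ESC libraries numbered 3 (0.34, 0.02).

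Within a cell type, relative stability was the log2 ratio of total to 4sU CPM in libraries of the same number, ranked over the 14731 genes. In ESCs the members ran from Ythdc2, at 0.02 ± 0.27 and percentile 49.0, down to Mettl14, at -1.44 ± 0.14 and percentile 19.8. The other 9 lay below the median gene there. Ythdc2 lay near it, with values of -0.29, 0.20 and 0.14, and was at percentile 52.9 without the libraries numbered 1 and at 67.3 with no filter on low counts. Mettl3 (-0.23 ± 0.07, percentile 42.5) and Ythdf2 (-0.35 ± 0.17, percentile 39.4) came next to Ythdc2, and Ythdc1 (-1.38 ± 0.12, percentile 20.6) and Ythdf1 (-1.26 ± 0.15) next to Mettl14. Neighbors in this order overlapped at every step but that from Alkbh5 (-0.87 ± 0.07, percentile 28.1) to Ythdf1. Thus within the writer complex the Mettl3 transcript stood well above its partner Mettl14, with values of -0.19, -0.31 and -0.18 against -1.54, -1.51 and -1.29.

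In EpiLCs, Ythdc2 was again highest at 0.26 ± 0.08 (percentile 53.1), without overlap with the next gene. Fto was second at -0.35 ± 0.06 (percentile 35.7), after a place in the middle of the ESC order at -0.87 ± 0.20 (percentile 28.1). Mettl3 followed at -0.46 ± 0.16 (percentile 33.1). Ythdf2 stood sixth at -0.85 ± 0.02 (percentile 25.4) and Wtap seventh at -1.09 ± 0.08 (percentile 21.5), from -0.57 ± 0.20 (percentile 34.2) in ESCs. Mettl14 (-1.20 ± 0.07, percentile 20.2), Ythdf1 (-1.39 ± 0.03, percentile 17.9) and Ythdc1 (-1.42 ± 0.08, percentile 17.6) were lowest. The zero of this scale depends on the scaling of libraries, while the percentile does not depend on a shift common to all genes.

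**Figure D3:**
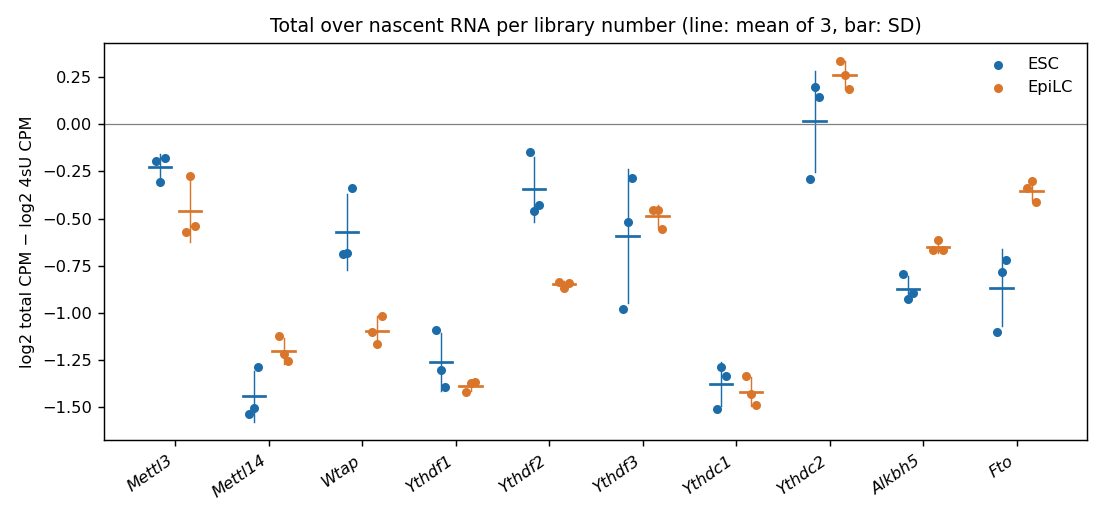
Relative mRNA stability of the 10 genes, as log2 of TMM-adjusted total CPM minus log2 of 4sU CPM for libraries of the same number, in ESCs and EpiLCs. Points are library numbers 1 to 3, lines are means and bars are SDs; Mettl14, Ythdf1 and Ythdc1 lie lowest in both cell types, and the mean goes from -0.35 in ESCs to -0.85 in EpiLCs for Ythdf2 and from -0.57 to -1.09 for Wtap.

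Ratios between 2 members within a library do not depend on its scaling. Each was taken per exonic length on the log2 scale, for 7 pairs in each assay, and compared between cell types by a two-sided exact permutation test. With 3 libraries against 3 this exact test cannot go below p = 0.1, and the smallest value after adjustment over the 14 comparisons was 0.233, so none passed. Lack of overlap was not counted over other gene pairs. Among single genes in total RNA it was common, with EpiLCs above ESCs for 4932 of 14731 genes and below for 5167. In total RNA, Wtap over Mettl3 was 0.06, 0.05 and 0.11 in ESCs and -0.54, -0.79 and -0.50 in EpiLCs (exact p = 0.1). Near parity per exonic length in ESCs thus gave way to 0.659 Wtap per Mettl3 in EpiLCs, with no overlap. That parity rests on exonic lengths of 4903 and 2025 bases, and in ESC total CPM Wtap was at 134.5 and Mettl3 at 52.9. In nascent RNA the same ratio was 0.41 ± 0.14 and 0.03 ± 0.07, also without overlap. Mettl3 over Mettl14 was 2.02 ± 0.06 and 1.96 ± 0.14 in total RNA and overlapped (exact p = 0.7), a ratio of 4.05 and 3.91 on the linear scale. It includes the difference in exonic length, 2025 against 7374 bases, and in ESC total CPM the genes were at 52.9 and 47.5. In nascent RNA the Mettl3 to Mettl14 ratio was 0.80 ± 0.05 in ESCs and 1.22 ± 0.07 in EpiLCs, without overlap (exact p = 0.1).

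Among the readers, Ythdf2 over Ythdf3 in total RNA was 0.72, 0.69 and 0.29 in ESCs and 0.12, 0.10 and 0.18 in EpiLCs, without overlap (exact p = 0.1). ESC library 3 again lay nearest to EpiLCs. Of the summed RPKM of the 3 YTHDF genes in total RNA, Ythdf2 made up 40.1% ± 0.453 in ESCs and 35.7% ± 0.133 in EpiLCs, Ythdf3 27.3% ± 4.50 and 32.5% ± 0.806, and Ythdf1 32.6% ± 4.12 and 31.9% ± 0.724. The shares of Ythdf3 overlapped, since ESC library 3 reached 32.5%. Ythdf2 over Ythdf1 overlapped in total RNA (exact p = 0.3), and in nascent RNA it was -0.61 ± 0.16 in ESCs and -0.38 ± 0.04 in EpiLCs, without overlap (exact p = 0.1). Ythdf1 over Ythdf3 overlapped in both assays. Without ESC total library 3, the EpiLC minus ESC difference in total RNA went from -0.14 to -0.04 for Ythdf2 over Ythdf1 and from -0.29 to -0.53 for Ythdf1 over Ythdf3. In nascent RNA Ythdf1 had the highest share in both, 45.7% ± 2.00 and 43.1% ± 0.565. Ythdc1 over Ythdc2 in total RNA was 1.92 ± 0.03 and 1.69 ± 0.02, without overlap (exact p = 0.1), whereas in nascent RNA it was 3.31 ± 0.16 and 3.38 ± 0.01 and overlapped (exact p = 0.8). Alkbh5 over Fto overlapped in both assays, at 2.21 ± 0.32 and 1.97 ± 0.05 in total RNA (exact p = 0.4) and 2.21 ± 0.30 and 2.27 ± 0.09 in nascent RNA (exact p = 0.8). Without ESC total library 3 the total RNA difference of Alkbh5 over Fto went from -0.24 to -0.42, and without ESC 4sU library 3 the nascent one went from 0.06 to -0.04.

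**Figure D4:**
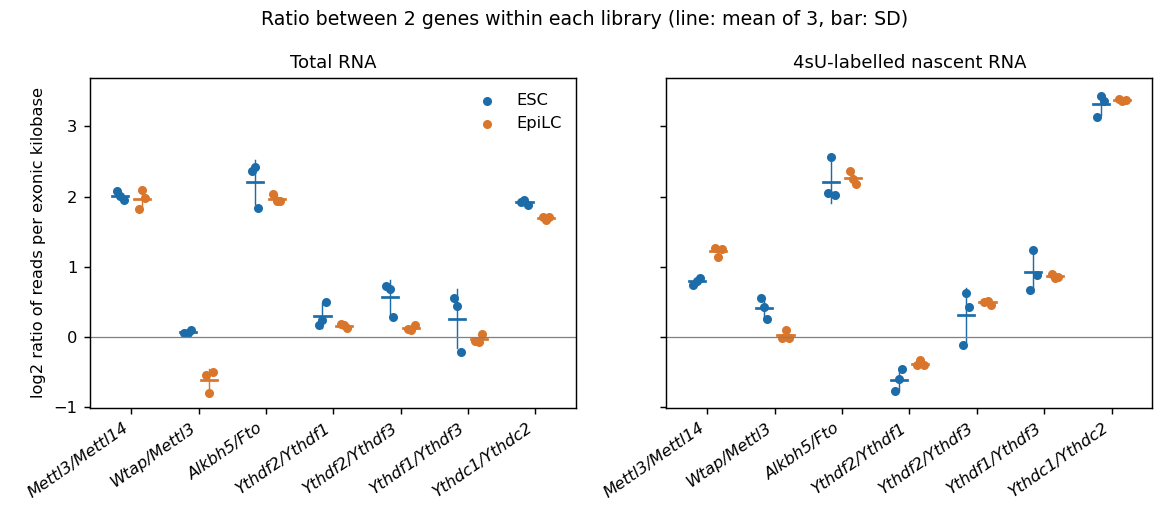
Log2 ratio of reads per exonic kilobase between 2 genes of the same library, for 7 pairs, in total and 4sU RNA. Points are libraries, lines are means and bars are SDs; Wtap/Mettl3 falls from 0.07 to -0.61 in total RNA with no overlap, while Mettl3/Mettl14 overlaps in total RNA and goes from 0.80 to 1.22 in 4sU RNA.

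The wider pathway was followed through 19 further genes: accessory subunits of the writer complex, other RNA methyltransferases and their partners, and other proteins reported to bind m6A. In total RNA 8 were higher and 5 lower, where 31.4% and 32.1% of all genes were, and 6 did not pass. Their median log2 change was 0.07, against 0.02 over all genes. In nascent RNA 7 were higher and 4 lower, where 23.7% and 28.8% of all genes were, and 8 did not pass, with a median of 0.07 against -0.09. In the stability change 1 was higher (Rbm15) and 0 were lower, where 2.72% and 1.88% of all genes were, and 18 did not pass, with a median of 0.05 against 0.11. For that count of 0, limma-voom had 3 lower at an unadjusted p under 0.05, and after adjustment edgeR had 0 and DESeq2 had 2. The genes below were named after their values were seen, Trmt112 by the rule that names called genes. Several, such as those of the HNRNP family, have near-identical copies elsewhere in the genome, and unique alignment makes their values uncertain.

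Trmt112, the partner that several methyltransferases need, was the one gene of the 19 that was called. It was called in total and in nascent RNA, where 27.6% and 25.5% of all genes were. It was at 4.72, 4.96 and 6.23 CPM in ESC total and at 2.58, 1.90 and 2.20 CPM in EpiLC total libraries, on 20 to 98 reads, with no overlap. The log2 change was -1.20 ± 0.28 (adjusted p = 0.00151). In nascent RNA Trmt112 was at 8.22, 11.3 and 16.1 CPM and at 6.63, 5.75 and 3.88 CPM, a log2 change of -1.03 ± 0.29 (adjusted p = 0.00848). The nascent call was lost by size without ESC 4sU library 2 (-0.97) or 3 (-0.77) or ESC total library 1 (-0.96), and without EpiLC 4sU library 3 also by its p (-0.77, adjusted p = 0.055).

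Other subunits of the writer complex moved in both directions in total RNA. Rbm15 (0.25 ± 0.07, adjusted p = 0.00676; 0.0928 with no filter) and Rbm15b (0.47 ± 0.11, adjusted p = 0.00201), which bring the complex to its targets, rose. Zc3h13, which holds the complex in the nucleus, fell by 0.27 (adjusted p = 0.00907), except with scaling to library totals (-0.18, adjusted p = 0.0735) and without EpiLC total library 3 (-0.23, 0.0516). Virma (-0.11 ± 0.09, adjusted p = 0.27) and Cbll1 (0.25 ± 0.12, adjusted p = 0.0747) did not pass. For Rbm15 the total and nascent changes had opposite signs: it was at 468, 422 and 409 CPM in ESC 4sU and at 345, 364 and 379 CPM in EpiLC 4sU libraries, a log2 change of -0.26 ± 0.07 (adjusted p = 0.00779). The stability change of Rbm15 was 0.51 ± 0.10 (adjusted p = 0.015), and it was lost with no filter (0.41, adjusted p = 0.107), without ESC total library 1 (0.41, 0.0737), EpiLC 4sU library 1 (0.39, 0.0903) or EpiLC total library 2 (0.49, 0.0509).

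Of the other binders in total RNA, Igf2bp1 (0.47 ± 0.07, adjusted p = 2.74e-05) and Igf2bp3 (0.44 ± 0.08, adjusted p = 0.000157) rose and their paralog Igf2bp2 fell by 0.79 (adjusted p = 1.35e-06). All 3 had the same sign and passed in nascent RNA, at 0.53, 0.58 and -0.83. Rbmx (0.81 ± 0.12, adjusted p = 4.18e-05), Prrc2a (0.80 ± 0.13, adjusted p = 5.98e-05) and Hnrnpa2b1 (0.46 ± 0.07, adjusted p = 6.86e-05) rose, while Hnrnpc fell by 0.36 (adjusted p = 0.00712). The Hnrnpc groups overlapped. ESC total library 3 was at 366 CPM, within the EpiLC total range of 343 to 368 CPM, while the other ESC total libraries were at 504 and 506 CPM. Of the other methyltransferases, Mettl5 fell by 0.71 (adjusted p = 3.94e-06) and Mettl4 rose by 0.40 (adjusted p = 0.00124).

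The genes whose pattern over the 12 libraries was most like that of Mettl3 and of Wtap, the member with the largest mRNA change, were sought among 10187 genes. Likeness was the root mean square difference between the log2 CPM of 2 genes, each centered on its own mean. For Mettl3 the nearest were Ppp4r2 at 0.0598, Rapgef2 at 0.0859 and Tdp2 at 0.0915. For Wtap they were Zbtb11 at 0.0854, Arid4a at 0.126 and Zfp292 at 0.128.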

How the data were processed

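Counts of reads on each gene were taken as deposited, with no normalization. To make them, the authors trimmed adapters (cutadapt 1.14), aligned single-end 50-base reads to mm10 with STAR 2.5.3a, kept unique alignments and counted strand-specifically over exons of GENCODE M14 without rRNA genes (featureCounts 1.5.3). It lists 92 spike-ins, all at 0 reads. Symbols came from GENCODE M21 (51274 of 51467 IDs). Genes reaching 3 CPM in 3 or more libraries entered a limma-voom fit of the 4 groups (limma 3.58.1, edgeR 4.0.16 for TMM scaling, R 4.3.3), following the study's methods, with DESeq2 1.42.0 and edgeR's quasi-likelihood test as alternatives. To be called, a gene needed an adjusted p below 0.05 and a log2 fold change beyond 1 in size. The 4sU libraries, with fewer reads, limit the precision, and totals without molecular identifiers cover counting error only. The code was tested on simulated counts. The 10 members are named in every comparison, along with up to 8 called genes of the wider list. Likeness was sought among genes averaging 10 CPM or more, and log2 CPM had a prior count of 2. Members and lists were chosen with earlier results of these data known.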

Additional observations from a re-analysis of the deposited data

Results flagged for a closer look

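Ythdf2 is singled out because its change from ESC to EpiLC differed between total and nascent RNA by a test of the difference itself, with a value of -0.50 ± 0.11 (adjusted p = 0.0194). The values behind it were a log2 change of -0.03 in total RNA and 0.47 in nascent RNA, and all 3 EpiLC ratios of total to nascent RNA were below all 3 ESC ratios. Of the wider list, Rbm15 met the same criterion in the other direction, with 0.51 ± 0.10 (adjusted p = 0.015), from 0.25 in total RNA and -0.26 in nascent RNA. Groups of 3 libraries were too small for the test of outlying samples.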

How the results depend on the processing

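Single-member changes were recomputed under 21 alternatives (other scalings, no filter, edgeR, DESeq2, a fit of one assay, a replicate block and libraries left out). No change that passed in any fit turned its direction. Of the members' mRNA changes, 180 of the recomputed values kept their direction and side of the threshold, 10 lost their call (9 for Fto, 1 for Ythdc1) and 20 changed sign without passing. Of the nascent changes 183 kept both, 20 gained and 7 lost a call, and of the stability changes 192 kept both, 10 gained and 4 lost a call and 4 changed sign without passing. The 84 recomputed ratio differences each left 1 library out and moved by less than the larger SD of the 2 cell types. Leaving out 1 of 3 values cannot move a mean by as much as their SD, so this was fixed in advance. Of 140 relative stabilities 61 moved by more than their SD, on a scale whose zero shifts with the scaling. Values with 1 library number left out could not move that far, so all 61 came from other scalings or no filter. The count of members higher in mRNA went from 4 to 2 with no filter and was 3 to 4 when a library was left out, and the count lower was 1 throughout. At an adjusted p alone the counts of members called became 5, 3 and 1 for mRNA, nascent RNA and stability. In nascent RNA, members higher were 2 to 4 when a library was left out, and members lower went from 0 to 1 in edgeR and with the replicate block by number, to 3 without both ESC libraries numbered 3, and were 0 to 3 when a library was left out. In stability, members higher went from 0 to 2 without both ESC libraries numbered 3 and were 0 to 1 when a library was left out. Members lower went from 1 to 2 in DESeq2 and without both ESC libraries numbered 3, and were 0 to 2 when a library was left out. The cause was not tested.

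Extracted RNA was divided between the assays, but the labels do not say which 4sU and total libraries share an extract. The main fit therefore did not pair them. The deviations of the 4sU and total libraries of the same number correlated at 0.213 to 0.462 in ESCs and 0.0230 to 0.0916 in EpiLCs, and 5 of 6 4sU libraries correlated best with the total library of their own number. With the replicate block by number, Fto passed in stability (0.52, adjusted p = 0.0449), giving 1 member higher, as did Mettl14 in nascent RNA (-0.25, adjusted p = 0.0339). With a replicate block over the 4sU and total libraries that share a cell type and number, 1 member was higher in stability (Fto, 0.52, adjusted p = 0.0191). There 2 members were lower (Ythdf2, -0.50, and Wtap, -0.52, adjusted p = 0.0159). Over all genes that block gave 1077 higher and 654 lower, against 401 and 277 in the main fit.

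For the wider list, mRNA genes lower went from 5 to 8 without both ESC libraries numbered 3 (4 to 6 with 1 library left out) and 13 passed at an adjusted p alone. In nascent RNA, genes higher were 4 to 7 and genes lower 2 to 4 with 1 library left out, and 2 were lower with no filter. The 1 nascent call (Trmt112) became 0 with median-of-ratios scaling, with TMM within each assay, in the fit of one assay and without both ESC libraries numbered 3 (0 to 1 with 1 library left out), while 11 passed at an adjusted p alone. In stability, genes higher went from 1 to 2 with library totals and that block over 4sU and total libraries, to 0 with no filter and to 4 without both ESC libraries numbered 3 (0 to 3 with 1 library left out). Genes lower went from 0 to 1 with median-of-ratios scaling and to 2 in DESeq2, with that block over 4sU and total libraries and without both ESC libraries numbered 3 (0 to 2 with 1 library left out), and 1 passed at an adjusted p alone.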
